A study of Mus musculus with 6 samples.

Results

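Foxp3, Ikzf1, Ikzf2, Ikzf4, Nrp1, Gpr83 and Plagl1 are 7 genes tied to the regulatory T cell (Treg) lineage or used as marks of Tregs that arose in the thymus. They were chosen by name, as the lineage factor, members of the Ikaros family that work with it and markers of thymic Tregs, and all 7 were found among the 36930 features of the deposited tables. BM Tregs were sorted from 3 mice with chronic myeloid leukemia (CML) and 3 naive mice, with 1 library for each mouse. All 6 mice were 8-week-old Foxp3-DTR-GFP mice, in which the Foxp3 locus also drives the human diphtheria toxin receptor and GFP. CML was induced by injecting syngeneic LSKs (lineage-negative, Sca-1+, c-kit+ progenitors), transduced with a BCR-ABL1-GFP retrovirus, into hosts that were not irradiated, and the Tregs were taken 15 days later. Hosts therefore kept their own T cells, while the naive mice received no leukemia cells. Both the Tregs and the leukemia cells of this model carry GFP. The study asked, among other questions, whether the Tregs in CML BM are of thymic origin, for which it stained Helios (Ikzf2) and neuropilin-1 (Nrp1) protein. By Helios staining it reported that thymic Tregs made up a larger part of the Tregs in CML BM. It also reported a stronger Foxp3-GFP signal in them. The mRNA levels of the 7 genes in CML and naive BM Tregs were compared here, in bulk RNA rather than by protein stains.

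Foxp3 is the transcription factor that defines Tregs, and Ikaros family zinc finger proteins bind DNA beside it and bring in corepressor complexes. Tregs that form in the thymus usually carry Helios and neuropilin-1, whereas many Tregs that form from conventional CD4+ T cells in the periphery have less of both, although neither protein marks thymic origin without exception. Gpr83 is a G protein-coupled receptor known from Treg signatures, and Plagl1 is an imprinted zinc finger gene.

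The label of the cells was checked against marker genes. The T cell genes Cd3d, Cd3e, Cd3g, Cd4, Cd28, Lck, Cd247 and Cd2 were read in all 6 libraries, with a summed level of 1741 to 2368 RPKM (reads scaled to feature length and to the reads of the library) in CML and 1856 to 2043 RPKM in naive libraries, and none of these 8 genes separated the groups. Transcripts of other cells were present too. The 15 granulocyte and leukemia cell genes summed to 65.2 to 286 RPKM in CML and 90.1 to 104 RPKM in naive libraries. Mpo, a granule enzyme, was read at 3.29, 37.5 and 84.6 RPKM in CML replicates and at 9.83 to 15.1 RPKM in naive ones, and S100a9 at 1.54 to 67.0 and 5.07 to 21.0 RPKM. Elane passed the unadjusted threshold with CML higher (3.95 to 29.1 and 1.43 to 3.34 RPKM), and Ly6g was listed at 0 in every library. Summed B cell and plasma cell genes were at 3.18 to 8.80 RPKM in CML and 8.42 to 10.7 RPKM in naive libraries, mostly Cd79b in the naive ones, with Pax5 and Ebf1 listed at 0 in every library. Plasmacytoid and dendritic cell transcripts had a summed level over 10 genes of 379 to 421 RPKM in CML and 287 to 597 RPKM in naive libraries. Summed erythroid transcripts reached 41.8 to 249.99 RPKM in CML and 5.93 to 30.9 RPKM in naive libraries. The estimated depth was 829181 to 7613827 reads in CML and 5187987 to 9751911 reads in naive libraries. CML replicate 2 was the shallowest and held 50.7% of its summed RPKM in its 10 highest features, compared with 28.5% to 31.3% in the other 5 libraries.

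Of the 7 genes, Nrp1 and Gpr83 were lower in all 3 CML libraries than in any naive one, and the CML and naive values of Foxp3, Ikzf1, Ikzf2, Ikzf4 and Plagl1 overlapped. Across the 13923 genes whose mean over the libraries reached 1 RPKM, 17.1% had groups that did not overlap, 12.2% with CML lower and 4.84% with CML higher. By limma with Benjamini-Hochberg adjustment over all these genes, 0 of the 7 passed an adjusted p of 0.05 with a fold of at least 1.5, a threshold that 24 genes or 0.172% passed. The study's own test, at the same cut-offs, called many more genes, most of them higher in CML. The count of 24 therefore describes the limma fit on these values. At an unadjusted p of 0.05 with the same fold, 2 of the 7 passed, both lower in CML, compared with 8.55% of all tested genes (5.94% lower and 2.61% higher in CML). The median log2 fold change of the 7 genes was -0.18, the same to 2 decimals as the median of all tested genes. Under quantile normalization, which brought the median of all tested genes to -0.01, the split of unadjusted calls was 624 higher and 590 lower in place of 363 higher and 827 lower, and Nrp1 and Gpr83 stood at -0.80 and -1.56. Fold changes are CML against naive on the log2(RPKM + 1) scale, which understates the change of low genes. In bulk RNA of sorted cells, fewer cells that express a gene and less RNA for each cell cannot be told apart.

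**Figure D1:**
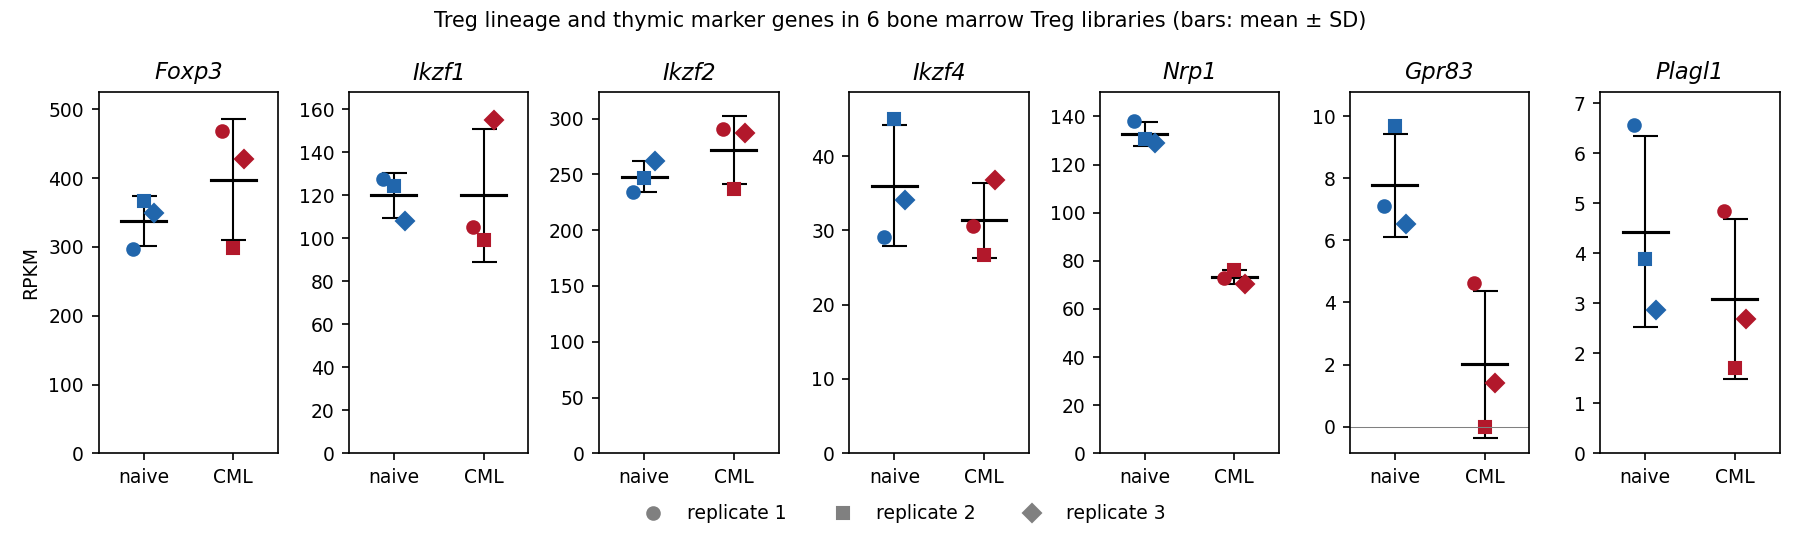
RPKM of each gene (y axis, separate scale for each panel) in the 3 naive and 3 CML libraries (x axis), with the replicate number shown by the symbol, the mean as a line and the SD as an error bar. The 3 CML values of Nrp1 (70.4 to 76.2 RPKM) and of Gpr83 (0 to 4.61 RPKM) all lie below the naive values, and the other 5 panels overlap.

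**Figure D2:**
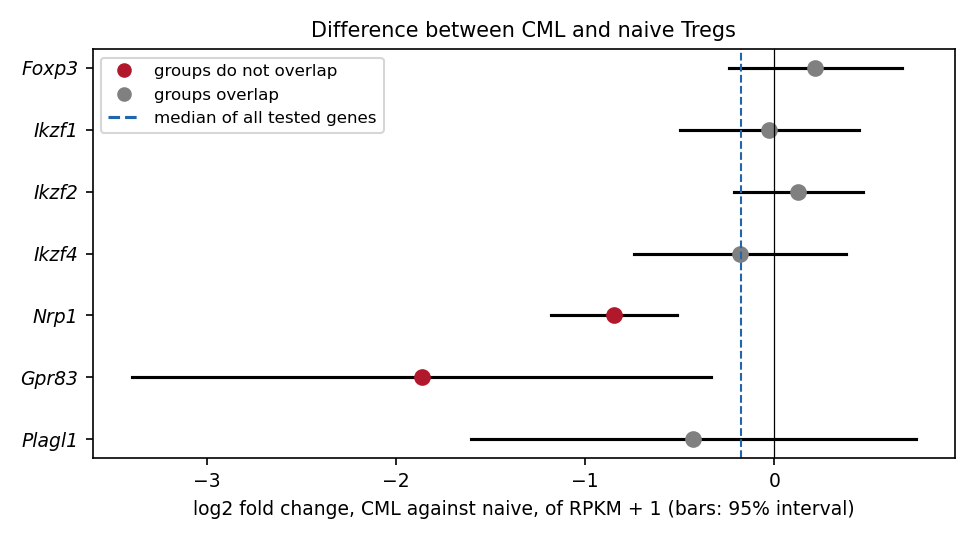
Log2 fold change of CML against naive (x axis, log2 of RPKM + 1) for the 7 genes (y axis), with 95% confidence intervals from limma as bars and the median of all tested genes as a dashed line. The intervals of Nrp1 and Gpr83 lie below 0 and those of the other 5 genes span 0.

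Values given by 3 are in the order of replicates 1, 2 and 3. Foxp3 was read at 468, 299 and 427 RPKM in CML and at 297, 367 and 349 RPKM in naive Tregs. CML replicates 1 and 3 lay above all naive libraries, and CML replicate 2, the shallowest library, lay within their range. The log2 fold change was 0.22 (95% interval -0.24 to 0.67), with an adjusted p of 0.723 by limma and an exact 2-sided permutation p of 0.4. Without CML replicate 2 the groups did not overlap and the log2 fold change was 0.41 (adjusted p = 0.324 by limma). The groups of Foxp3 also separated, CML higher, with quantile normalization (0.31, adjusted p = 0.559 by limma) and with a common 75th percentile (0.29, adjusted p = 0.534 by limma). The share of all genes that separated was not taken at these settings, and leaving a library out makes separation easier. Foxp3 (chrX:7573644-7595245, plus strand, GRCm38) shares 31.5% of its exonic bases with exons of neighbouring genes, among them Ccdc22 and Ppp1r3f. The library kit does not mark strand, so reads in the shared bases cannot be assigned to 1 gene. Ccdc22 was read at 11.1 to 18.6 RPKM and Ppp1r3f at 3.67 to 16.1 RPKM over the 6 libraries.

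Ikzf2 encodes Helios, an Ikaros family factor of Tregs (chr1:69531214-69687245, minus strand). It was read at 291, 237 and 288 RPKM in CML and at 234, 247 and 262 RPKM in naive Tregs. The pattern resembled that of Foxp3, with CML replicates 1 and 3 above all naive libraries and CML replicate 2 among them. The log2 fold change was 0.13 (95% interval -0.21 to 0.47, adjusted p = 0.778 by limma, exact permutation p = 0.3). The interval holds folds from 0.864 to 1.38. Without CML replicate 2 the groups of Ikzf2 did not overlap, at a log2 fold change of 0.22 (adjusted p = 0.495 by limma). Separation is easier with fewer libraries, and its share over all genes was not taken at this setting.

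Ikzf1 encodes Ikaros, the founding member of the family and a regulator of lymphocyte development (chr11:11685003-11772926, plus strand). Its levels were 105, 99.4 and 155 RPKM in CML and 128, 124 and 108 RPKM in naive Tregs. The CML values lay on both sides of the naive range, and the log2 fold change was -0.03 (95% interval -0.50 to 0.45, adjusted p = 0.973 by limma). The sign turned under some settings, with 0.042 when libraries were set to the same 75th percentile and values from -0.23 without CML replicate 3 to 0.092 without CML replicate 2.

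Ikzf4 encodes Eos, which binds Foxp3 and recruits the corepressor Ctbp1 (chr10:128630843-128645991, minus strand). It was the lowest Ikaros member among the 7, at 30.7, 26.7 and 36.8 RPKM in CML and 29.1, 45.0 and 34.0 RPKM in naive Tregs. These values overlapped throughout, with a log2 fold change of -0.18 (95% interval -0.74 to 0.38, adjusted p = 0.814 by limma).

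The other 2 genes of the Ikaros family, Ikzf3 and Ikzf5, were read for comparison. Ikzf3, which encodes Aiolos, was read at 193, 159.8 and 212 RPKM in CML and at 120.3, 144 and 128 RPKM in naive Tregs. Every CML library lay above every naive library, at a log2 fold change of 0.51 (adjusted p = 0.370 by limma), under the fold threshold of 1.5. The ratio of Ikzf3 to Ikzf1 was 1.37 to 1.84 in CML and 0.942 to 1.19 in naive libraries, without overlap. Ikzf5, which encodes Pegasus, was read at 9.57 to 19.2 RPKM in CML and 15.6 to 17.4 RPKM in naive libraries. Of the 5 family genes, 0 passed the unadjusted threshold and their median log2 fold change was -0.03.

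Nrp1 encodes neuropilin-1, a receptor for semaphorins and VEGF that is displayed on thymic Tregs (chr8:128358604-128503363, plus strand). Its levels were 72.9, 76.2 and 70.4 RPKM in CML and 138, 130.6 and 129.0 RPKM in naive Tregs. The groups were far apart relative to their spread, with means of 73.2 ± 2.91 RPKM in CML and 133 ± 4.96 RPKM in naive Tregs (SD, n = 3 each), a ratio of 1.81. The log2 fold change was -0.85 (SE 0.14, 95% interval -1.18 to -0.52), with an adjusted p of 0.0968 by limma. Nrp1 therefore missed the adjusted threshold, and it ranked 56 of 13923 genes by unadjusted p. The exact permutation p was 0.1, the smallest that 3 mice against 3 can give. The lowest library still held an estimated 230.4 reads of Nrp1 (CML replicate 2), and the other 5 held 587 to 4584. These estimates and the floors below cover counting error only, since amplified reads are not independent molecules.

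Nrp1 and Ikzf2, both used to mark thymic Tregs, were set against each other within each library. Nrp1 per Ikzf2 was 0.250, 0.322 and 0.245 in CML and 0.590, 0.529 and 0.492 in naive Tregs. A ratio within a library does not depend on a linear scaling between libraries, and all CML values lay below all naive values. Nrp1 per Foxp3 was 0.156 to 0.255 in CML and 0.356 to 0.465 in naive libraries, also without overlap, whereas Ikzf2 per Foxp3 overlapped at 0.622 to 0.791 and 0.673 to 0.788. Ikzf4 per Foxp3 was 0.0655 to 0.0893 in CML and 0.0974 to 0.123 in naive libraries. No test was made on the ratios.

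**Figure D3:**
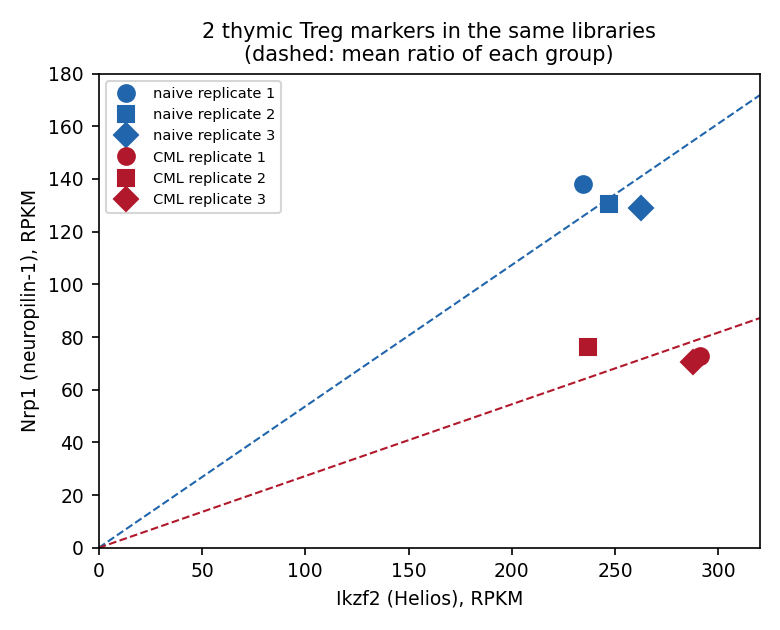
Nrp1 (y axis) against Ikzf2 (x axis), both in RPKM, with 1 point for each library and dashed lines through the origin at the mean ratio of each group. CML and naive libraries span similar Ikzf2 levels (237 to 291 and 234 to 262 RPKM), but Nrp1 lies at 70.4 to 76.2 RPKM in CML and 129.0 to 138 RPKM in naive libraries.

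Nrp1 is also made by endothelial cells and some dendritic cells, so their markers were read beside it. Siglech, a marker of plasmacytoid dendritic cells, was read at 144, 137 and 129 RPKM in CML and 222, 91.9 and 143 RPKM in naive Tregs, which overlapped. Of the 10 plasmacytoid and dendritic cell genes, Cd209d passed the unadjusted threshold, lower in CML, at 5.07 to 18.2 RPKM in CML and 17.7 to 42.9 RPKM in naive libraries, and Xcr1 was listed at 0 in every library. The 6 endothelial genes summed to 37.5 to 47.7 RPKM in CML and 74.1 to 98.4 RPKM in naive libraries. Most of this sum was Pecam1, which T cells express too, at 24.7 to 38.4 RPKM in CML and 62.7 to 95.6 RPKM in naive libraries, while Emcn and Egfl7 were listed at 0 in every library and Cdh5 was higher in every CML library. The part of other cells in the Nrp1 difference was not tested.

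Gpr83 (chr9:14860210-14870789, plus strand) was the member with the largest fold change and the lowest mean level in CML. It was read at 4.61, 0 and 1.41 RPKM in CML and at 7.12, 9.67 and 6.54 RPKM in naive Tregs. Every CML library lay below every naive library, with means of 2.01 ± 2.37 and 7.78 ± 1.66 RPKM (SD, n = 3 each). The log2 fold change was -1.87 (SE 0.66, 95% interval -3.40 to -0.33), with p = 0.0230 and an adjusted p of 0.429 by limma, and the exact permutation p was 0.1. The estimated reads were 149.6, 0 and 13.7 in CML and 157, 361 and 272 in naive Tregs. At the mean naive level, CML replicate 2 would have held 27.5 reads, and its floor of 3 reads corresponds to 0.850 RPKM. Without this library the log2 fold change was -1.24 (adjusted p = 0.370 by limma). The unadjusted call was lost without naive replicate 1 (log2 fold change -1.91), without naive replicate 2 (-1.72) and with pseudocounts of 0.1 (-3.12) and 0.001 (-5.36).

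Plagl1 (chr10:13060504-13131694, plus strand) was read at 4.84, 1.71 and 2.69 RPKM in CML and at 6.56, 3.88 and 2.86 RPKM in naive Tregs. The groups overlapped, at a log2 fold change of -0.43 (95% interval -1.60 to 0.75, adjusted p = 0.787 by limma). In CML replicate 2 its value rests on an estimated 7.46 reads, compared with 32.3 to 194 reads in the other 5 libraries. Plagl1 is placed in a network of imprinted genes, of which 7 of 18 in the tables reached a mean of 1 RPKM. Cdkn1c, an imprinted cell cycle inhibitor, passed the unadjusted threshold among these 7, at 0 to 0.503 RPKM in CML and 0.554 to 6.85 RPKM in naive libraries (adjusted p = 0.506 by limma). No floor was computed for Cdkn1c, whose length differs from that of Plagl1. For Plagl1, 3 reads corresponded to 0.688 RPKM in CML replicate 2, where Cdkn1c was listed at 0. They corresponded to 0.0749 RPKM in CML replicate 1 and 0.110 RPKM in naive replicate 1, where Cdkn1c was read at 0.503 and 0.554 RPKM. Gnas and Igf2r were higher in level, at 274 to 406 and 16.5 to 29.8 RPKM over the 6 libraries, and their groups overlapped.

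The levels of the 7 genes kept part of their order in all 6 libraries. Foxp3 was the highest, Ikzf2 the next and Ikzf4 the fifth in each library, on the RPKM scale. Ikzf1 was above Nrp1 in all 3 CML libraries and below it in all 3 naive libraries. Plagl1 was above Gpr83 in all 3 CML libraries and below it in all 3 naive libraries. Over the 6 libraries, Pearson's r of log2(RPKM + 1) was 0.95 between Foxp3 and Ikzf2, 0.75 between Nrp1 and Gpr83 and 0.76 between Gpr83 and Plagl1. These values are a description, since the 6 points share 2 groups and differ in depth.

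Among 7853 features that averaged at least 10 RPKM, the 5 most like Foxp3 over the 6 libraries were Acsl5 (r = 0.99), Dscr3, Tbk1, Cep83 and Zmpste24 (r = 0.98 for the last). Acsl5 was read at 51.8, 37.0 and 46.7 RPKM in CML and 35.2, 41.9 and 40.6 RPKM in naive Tregs. The 5 most like Gpr83 were Tnfrsf25, Med19, Wdr26, Thrap3 and Esyt2, each with r above 0.99. Tnfrsf25 was read at 25.3, 10.9 and 17.6 RPKM in CML and 29.0, 32.3 and 28.2 RPKM in naive Tregs.

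The genes around the lineage factors were read as lists. Of 27 regulators of the Foxp3 gene, 0 passed the unadjusted threshold with CML higher and 2 with CML lower. Smad2, a mediator of TGF-beta signals, was read at 11.7 to 24.3 RPKM in CML and 31.1 to 43.8 RPKM in naive libraries (adjusted p = 0.320 by limma), and Satb1, a chromatin organizer, at 26.4 to 43.4 and 42.9 to 82.6 RPKM. Ets1, Nfatc1, Gata3 and Creb1, the most abundant of the others, had overlapping groups. Of the 27, 7 were lower in every CML library and 2 were higher, and 18 overlapped. Over all tested genes these shares were 12.2% lower and 4.84% higher, and 5.94% passed the unadjusted threshold with CML lower. The median log2 fold change of the list was -0.11.

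Of 21 protein partners of Foxp3, 1 passed the adjusted threshold, which 0.172% of all tested genes passed. Tcf7, which encodes TCF-1, was read at 70.6, 85.8 and 72.4 RPKM in CML and 287, 455 and 218 RPKM in naive Tregs, and it fell by 1.99 on the log2 scale (adjusted p = 0.0445 by limma, and 0.0372 to 0.186 under the 15 alternatives). At the unadjusted threshold 4 partners were lower in CML (Tcf7, Lef1, Foxp1 and Kat5) and Hif1a was higher. The shares of all tested genes at this threshold were 5.94% lower and 2.61% higher. Of the 21, 6 were lower in every CML library and 1 was higher, compared with 12.2% and 4.84% of all tested genes. Hif1a, a hypoxia-responsive factor, was read at 259 to 400 RPKM in CML and 173 to 240.2 RPKM in naive libraries. The median of the list was -0.25. Of 16 tested corepressor genes of Ikaros and Eos, only Hdac2 passed the unadjusted threshold, at 16.1 to 25.5 RPKM in CML and 32.3 to 34.8 RPKM in naive libraries. Chd3, the most abundant of them, was also lower in every CML library, at 154 to 237 and 249.8 to 278 RPKM. It stayed under the fold threshold (adjusted p = 0.505 by limma), and the groups of the other 14 overlapped. Ctbp1, the partner of Eos, was read at 68.6 to 87.1 and 63.4 to 77.1 RPKM, with overlap.

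The 20 Treg signature genes, a list that holds Ikzf2, Ikzf4, Nrp1 and Gpr83, went in both directions. At the unadjusted threshold Il2rb, Tnfrsf18, Tnfrsf4 and Entpd1 were higher in CML and Nrp1 and Gpr83 were lower, and the median log2 fold change was 0.21. The shares of all tested genes at this threshold were 2.61% higher and 5.94% lower. Of the 20, 7 were higher in every CML library and 3 were lower, compared with 4.84% and 12.2% of all tested genes. Entpd1, which encodes the ectonucleotidase CD39, was read at 42.2 to 65.2 RPKM in CML and 17.1 to 31.5 RPKM in naive libraries (adjusted p = 0.296 by limma). The groups of Ctla4, Lrrc32 and Capg did not overlap either, with CML higher, and Nt5e was slightly lower in every CML library. Il2ra and Izumo1r, both typical Treg surface proteins, overlapped.

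Of 9 genes linked to Tregs formed in the periphery, Maf and Prdm1 passed the unadjusted threshold with CML higher and Igfbp4 with CML lower. The shares over all tested genes were 2.61% higher and 5.94% lower. Prdm1, which encodes Blimp-1, was read at 53.5, 39.4 and 51.9 RPKM in CML and 19.9, 21.3 and 21.9 RPKM in naive Tregs (adjusted p = 0.131 by limma). The median log2 fold change of the list was 0.01.

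Of 20 ligands and coreceptors of neuropilins, 11 reached a mean of 1 RPKM, and 5 were listed at 0 in every library, among them the ligands Sema3a and Sema3f. Plxnd1, a semaphorin receptor, passed the unadjusted threshold with CML higher, at 18.99 to 28.8 RPKM in CML and 9.29 to 14.6 RPKM in naive libraries (adjusted p = 0.363 by limma). Sema4a, the ligand that engages Nrp1 on Tregs, was read at 1.92 to 8.48 and 5.84 to 12.3 RPKM, with overlap. Nrp2, the paralog of Nrp1, was listed at 0 in all CML libraries and at 0.149 to 0.490 RPKM in naive libraries. No floor was computed for Nrp2. For Nrp1, 3 reads corresponded to 0.993 RPKM in CML replicate 2 and to 0.0844 to 0.159 RPKM in the naive libraries.

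Of 10 genes of resting Tregs, 7 passed the unadjusted threshold, all with CML lower, and Tcf7, S1pr1 and Klf2 passed the adjusted one. The shares over all tested genes were 5.94% (CML lower) and 0.172%. This list is not separate from those above. Tcf7 and Lef1 are also among the partners of Foxp3, and Satb1 and Bach2 among the regulators of the Foxp3 gene. The median log2 fold change was -1.08. S1pr1, the receptor for exit from tissues, was read at 27.3 to 34.4 RPKM in CML and 85.1 to 131 RPKM in naive libraries, and Klf2, its activator, at 82.7 to 116 and 230.4 to 327 RPKM. Il7r and Bcl2 overlapped. All 3 kept their direction under the 15 alternatives, but Tcf7 passed the adjusted threshold in only 2 of them and S1pr1 and Klf2 in 5 each. The 3 calls were lost when any 1 library was left out (adjusted p of 0.0580 to 0.271 by limma), with a pseudocount of 0.001, without a filter, without a variance trend and with the replicate block.

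**Figure D4:**
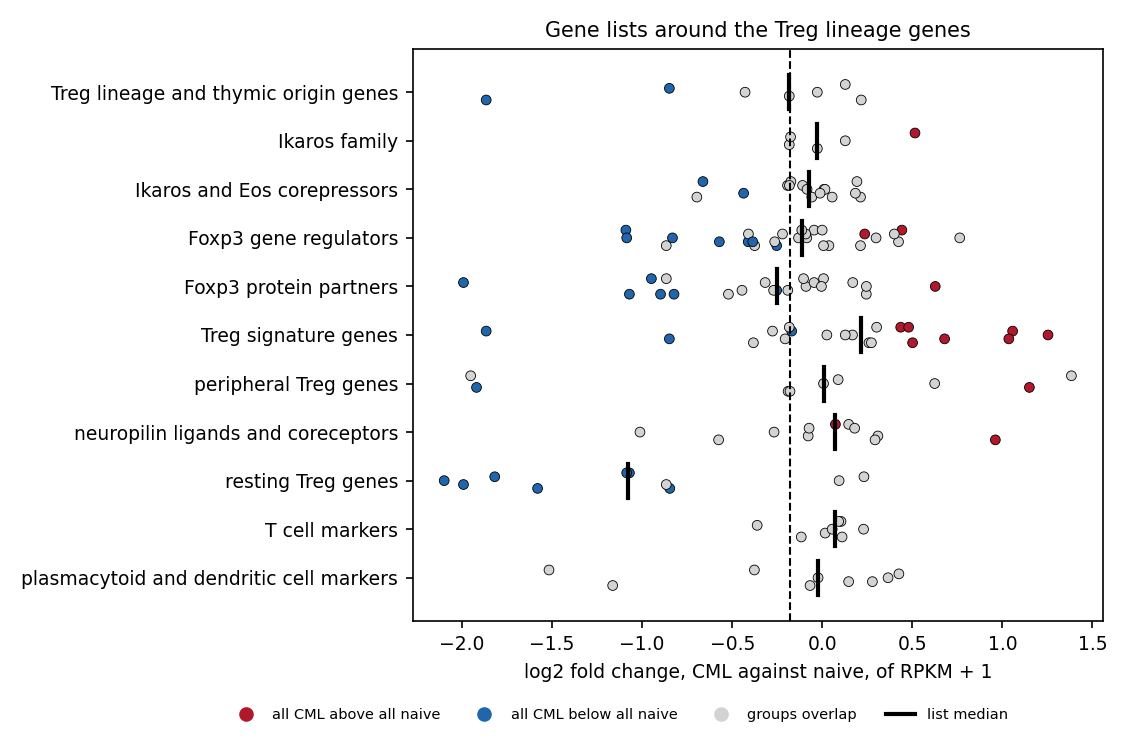
Log2 fold change of CML against naive (x axis, log2 of RPKM + 1) for each tested gene of 11 lists (y axis), with the median of each list as a black bar and the median of all tested genes as a dashed line. Red and blue points are genes whose CML libraries all lie above or below the naive libraries, and Nrp1 and Gpr83 are the 2 blue points of the top row.

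The 250 bases before the annotated start are shown for Nrp1 and Gpr83, the members whose groups did not overlap, on GRCm38.p6 as given by RefSeq. The Nrp1 window is chr8:128358823-128359072 and the Gpr83 window chr9:14859960-14860209, both on the plus strand. Capitals mark a match to the Ikaros core TGGGAA.
Nrp1: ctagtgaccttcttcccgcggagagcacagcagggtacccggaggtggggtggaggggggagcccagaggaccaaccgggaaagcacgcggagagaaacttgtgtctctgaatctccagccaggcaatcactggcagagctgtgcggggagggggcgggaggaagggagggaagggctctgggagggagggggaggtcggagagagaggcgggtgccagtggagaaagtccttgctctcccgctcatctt
Gpr83: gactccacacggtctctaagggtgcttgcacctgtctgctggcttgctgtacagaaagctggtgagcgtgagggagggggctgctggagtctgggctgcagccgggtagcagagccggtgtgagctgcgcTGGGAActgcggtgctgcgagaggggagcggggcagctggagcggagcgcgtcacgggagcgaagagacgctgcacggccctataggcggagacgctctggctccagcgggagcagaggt
Both strands were searched for TGGGAA (Ikaros), TGTTTAC (forkhead) and TGTGGT (Runx). The Gpr83 window held 1 Ikaros core, starting 120 bases before the start, and the Nrp1 window held none of the 3. Of 32851 windows of this length, 21.6% held TGGGAA, 3.17% held TGTTTAC and 14.0% held TGTGGT. Windows of Foxp3, Ikzf1 and Plagl1 held no match. Ikzf2 and Ikzf4 had no window in the sources used and were not searched. A match in this window is a description of the letters and says nothing of binding.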

How the data were processed

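RNA of sorted BM Tregs was amplified by the authors with the SMART-Seq v4 kit and read from 1 end on an Illumina NextSeq, and reads were assembled in SeqMan NGen 15 and quantified in ArrayStar 15. The submitters' processing notes name GRCm38 and mm10, and the annotation is not given in the sources used here. The deposited values were read as RPKM, which the sources do not name. The value 0.001 (no reads) was set to 0, and the 41 repeated feature names were kept apart. The authors' own test needs counts, which these values are not, so limma 3.58.1 (R 4.3.3) was used on log2(RPKM + 1) for 13923 features with a mean of at least 1 RPKM, with a trended variance and no replicate block. Calls needed an adjusted p under 0.05, or an unadjusted p under 0.05, each with a fold of at least 1.5. Single values were compared with exact permutation tests over 20 assignments. Depth was estimated from steps of value times length in 1297 small RNA features (30.5% to 59.0% of products on whole steps, within 0.05 of a step, without the defining ones), so read numbers are approximate. They also use the longest GENCODE M21 transcript of each gene, which may not be the length the authors used. The 7 genes and the lists were chosen with earlier results of these data known. Genes named are all 7, list genes past the unadjusted threshold, up to 4 abundant others of a list, and the 5 features most like Foxp3 and Gpr83. Emphasis on marker genes, Ikzf3, Ikzf5, Nrp2, Sema4a, Sema3a, Sema3f, Lrrc32, Capg, Nt5e, Ctbp1, Bcl2, Ccdc22 and Ppp1r3f was chosen after their values were seen. Some genes of the lists are not reported here. Alternatives covered the pseudocount, the filter, the scaling, the variance model, library weights, the replicate block and each library left out. Python 3.11.15 with numpy 2.4.6, pandas 2.3.3, scipy 1.17.1 and matplotlib 3.10.9 was used for the rest.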

Additional observations from a re-analysis of the deposited data

How the results depend on the processing

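None of the 7 genes passed the adjusted threshold under any of the 15 alternatives run. Nrp1 kept its direction and passed the unadjusted threshold in all 15, at log2 fold changes of -0.88 to -0.78 and adjusted p of 0.0536 to 0.513 by limma. The unadjusted threshold was passed by 1 of the 7 with a pseudocount of 0.1, a pseudocount of 0.001 or a mean of at least 5 RPKM (which left out Gpr83 and Plagl1), and by 1 to 2 with a library left out. Gpr83 stood at -3.12 and -5.36 with the smaller pseudocounts and at -2.48 to -1.24 with a library left out. Ikzf1 turned to 0.042 with the same 75th percentile and ranged from -0.23 to 0.092 with a library left out. Between 2 and 4 of the 7 did not overlap with a library left out, and the 4 without CML replicate 2 were Foxp3, Ikzf2, Nrp1 and Gpr83. Groups with fewer libraries separate more easily, and the share of all genes that did so was not taken at these settings. Over all genes, 24 passed the adjusted threshold, compared with 0 with a pseudocount of 0.001, 1 without a filter, 53 each under quantile normalization and under a common 75th percentile, 11 without a variance trend, 45 with library weights and 0 to 29 with a library left out (8 without CML replicate 3, 0 without naive replicate 1 or naive replicate 2, 3 without naive replicate 3). The unadjusted threshold was passed by 731 to 1758 genes with a library left out. With the replicate block 1 gene passed the adjusted threshold and Nrp1 had an adjusted p of 0.340 by limma. Same-numbered libraries did not deviate together (r = -0.0048, -0.0016 and -0.019), and the other pairs lay at -0.042 to 0.052. No pairing by number was seen, but this comparison cannot exclude one. The cause of these changes was not tested. The estimated depth limits Gpr83 and Plagl1 in CML replicate 2.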
